A study of Mus musculus with 9 samples.

Results

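The 10 genes described here, Atf4, Atf5, Ddit3, Asns, Trib3, Psat1, Phgdh, Shmt2, Mthfd2 and Aldh18a1, belong to the integrated stress response and to the amino acid and one-carbon synthesis that it controls. They were taken by symbol from the 3 deposited expression tables, which together held 15779 genes, and all 10 were found in all 3 tables. In the integrated stress response, several stress kinases phosphorylate the translation factor eIF2alpha, which lowers protein synthesis in general while the mRNA of the transcription factor ATF4 is translated more. Much of the control of ATF4 therefore lies in translation, and the level of Atf4 mRNA is only one part of it. ATF4, alone or with partners such as CHOP, switches on genes for amino acid synthesis and uptake, for serine and folate-linked one-carbon metabolism, for tRNA charging and for feedback on the pathway itself, and in the heart this programme is best known from mitochondrial dysfunction.

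The data are 9 sequenced libraries of polyadenylated RNA from hearts of adult mice of the C57BL/6J strain. The 3 groups of 3 were wild-type mice given saline, mice homozygous for the Mybpc3 nonsense allele R946X given saline (called saline mutant below), and mice of that same homozygous genotype given a treatment named high-dose-exABE8e (called treated mutant). Mybpc3 encodes cardiac myosin-binding protein C, and its loss-of-function alleles cause hypertrophic cardiomyopathy in people. Per the series design text, adenine base editors were delivered to cardiomyocytes with an adeno-associated virus of serotype 9; the labels do not define the treatment name further and give neither its dose nor the age or sex of the animals. No mutant group given an inactive vector was among the libraries, so vector, editor and correction of the allele cannot be told apart in the treated group. Nothing beyond the replicate numbers says that the libraries came from separate animals, so p-values measure the spread between these samples.

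The deposited values are whole numbers that behave like rounded per-million levels and not like read counts, since the libraries summed to between 999152 and 999382. Sequencing depth is therefore unknown, and each library listed between 14151 and 14934 genes above 0. The targeted gene followed the labels: Mybpc3 was listed at 1510, 1795 and 2039 in wild type, at 133, 142 and 186 in saline mutants and at 1024, 1374 and 1332 in treated mutants. Nppa and Nppb, the natriuretic peptide genes that mark the hypertrophic heart, were higher in saline mutants than in wild type in limma fits (adjusted p = 0.0011 and 0.00012). In each group 1 library held Xist: wild-type replicate 1, saline mutant replicate 3 and treated replicate 1. Treated replicate 1 held both Xist and Y-linked transcripts, whereas every other library held one or the other, and values without it are given beside the treated results for Atf4, Mthfd2, Ppp1r15a, Slc38a2, Gdf15 and the endoplasmic reticulum genes.

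The start regions of 4 of the genes are shown because 2 of them, Atf4 and Mthfd2, were the members whose RNA rose in saline mutants, and the other 2, Asns and Trib3, were the members that held the ATF4 recognition core. Each window runs from 250 bases before to 50 bases after a RefSeq transcript start on GRCm38.p6 and is written 5′ to 3′ on the strand of the gene. Capitals mark TGATGNAA, the core of the C/EBP-ATF response element, and TGACG, the short core of the cyclic AMP response element, or the reverse complement of either.
Atf4, chr15:80254934-80255233, plus strand: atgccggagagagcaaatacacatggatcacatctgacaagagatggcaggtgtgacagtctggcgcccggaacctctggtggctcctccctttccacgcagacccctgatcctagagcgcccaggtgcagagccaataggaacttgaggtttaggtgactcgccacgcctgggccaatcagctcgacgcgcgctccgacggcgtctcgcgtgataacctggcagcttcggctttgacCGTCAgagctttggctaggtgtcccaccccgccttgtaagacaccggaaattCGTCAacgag
Mthfd2, chr6:83317555-83317854, minus strand: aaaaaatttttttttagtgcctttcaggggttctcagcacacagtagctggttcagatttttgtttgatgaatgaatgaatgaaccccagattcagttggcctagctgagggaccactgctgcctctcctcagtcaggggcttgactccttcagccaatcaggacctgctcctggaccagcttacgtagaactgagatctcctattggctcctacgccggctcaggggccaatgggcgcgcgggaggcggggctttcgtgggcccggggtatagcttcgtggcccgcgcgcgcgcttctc
Asns, chr6:7693160-7693459, minus strand: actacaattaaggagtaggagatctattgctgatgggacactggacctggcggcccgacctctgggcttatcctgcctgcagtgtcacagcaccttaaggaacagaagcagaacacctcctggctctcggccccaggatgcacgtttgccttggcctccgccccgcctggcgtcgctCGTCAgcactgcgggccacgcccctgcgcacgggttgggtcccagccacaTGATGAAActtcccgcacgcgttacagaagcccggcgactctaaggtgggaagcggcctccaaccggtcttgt
Trib3, chr2:152344011-152344310, minus strand: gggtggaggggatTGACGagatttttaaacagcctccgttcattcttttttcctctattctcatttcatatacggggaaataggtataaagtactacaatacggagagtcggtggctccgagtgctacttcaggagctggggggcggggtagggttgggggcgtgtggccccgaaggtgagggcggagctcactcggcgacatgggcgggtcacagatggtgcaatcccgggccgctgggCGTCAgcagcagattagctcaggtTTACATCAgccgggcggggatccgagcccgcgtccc

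All 10 genes had at least 1 such window, 12 in all, and both strands were searched. TGATGNAA was found in 2 of the 12, with TGATGAAA in Asns at 23 bases before the start and TTACATCA, on the opposite strand, in Trib3 at 14 bases after it. Of all 32851 start windows in the table, 3.97% held this core. TGACG was found in the windows of Atf4, Asns, Trib3 and Aldh18a1 and in 20.8% of all windows. The longer forms TGATGCAA (0.895% of all windows), TGACGTCA (1.79%) and ATTGCATCA (0.192%) were in none of the 12; TGATGCAA is a case of TGATGNAA, TGACGTCA contains TGACG, and the reverse complement of ATTGCATCA contains TGATGCAA. The Mthfd2 window, which lies inside the longer gene outline of GENCODE M21, held none of the 5 strings, and a match or its absence is a description of these letters only.

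In saline mutant hearts 2 of the 10 genes rose against wild type and none fell by the same test. Atf4 rose by 1.45 times and Mthfd2 by 4.29 times, the latter from rounded wild-type values of 2 and 3. The other 8 did not pass the test, and 4 of the 10 had an unadjusted limma p under 0.05 (19.7% of all genes). Genes were called at an adjusted p under 0.05, from limma on log2(value + 1) with Benjamini-Hochberg adjustment over the 13632 genes tested, of which 7.7% were called (4.56% higher and 3.14% lower). The groups did not overlap for 3 genes that were higher (Atf4, Mthfd2 and Aldh18a1) and for 1 that was lower (Shmt2), where 12.8% and 8.78% of all genes tested separated in those directions. The median log2 difference of the 10 genes was 0.45, against 0.07 over all genes tested.

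Against their own saline controls, treated mutants showed no called gene among the 10. Only Psat1 had an unadjusted limma p under 0.05, only Shmt2 separated the groups (upward, as 5.48% of all genes did), and 2 of 13636 genes (0.0147%) were called in this comparison, with 8.29% under an unadjusted p of 0.05. Against wild type, treated mutants also had 0 of 10 called, with unadjusted limma p under 0.05 and no overlap for Mthfd2 and Atf4 (9.13% of all genes separated upward), where 134 of 13554 genes (0.989%) were called and 12.5% had an unadjusted p under 0.05. The medians of the 10 log2 differences were -0.08 and 0.21 in these comparisons, against -0.02 and 0.01 over all genes. Without treated replicate 1 they were -0.24 and 0.11, against 0.00 and 0.04 over all genes. The 3 comparisons share their groups with one another, so their values are set side by side and not taken as independent. A comparison of 3 libraries with 3 cannot reach p = 0.05 in a 2-sided exact permutation test. The p-values below therefore come from the fit across all genes.

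**Figure D1:**
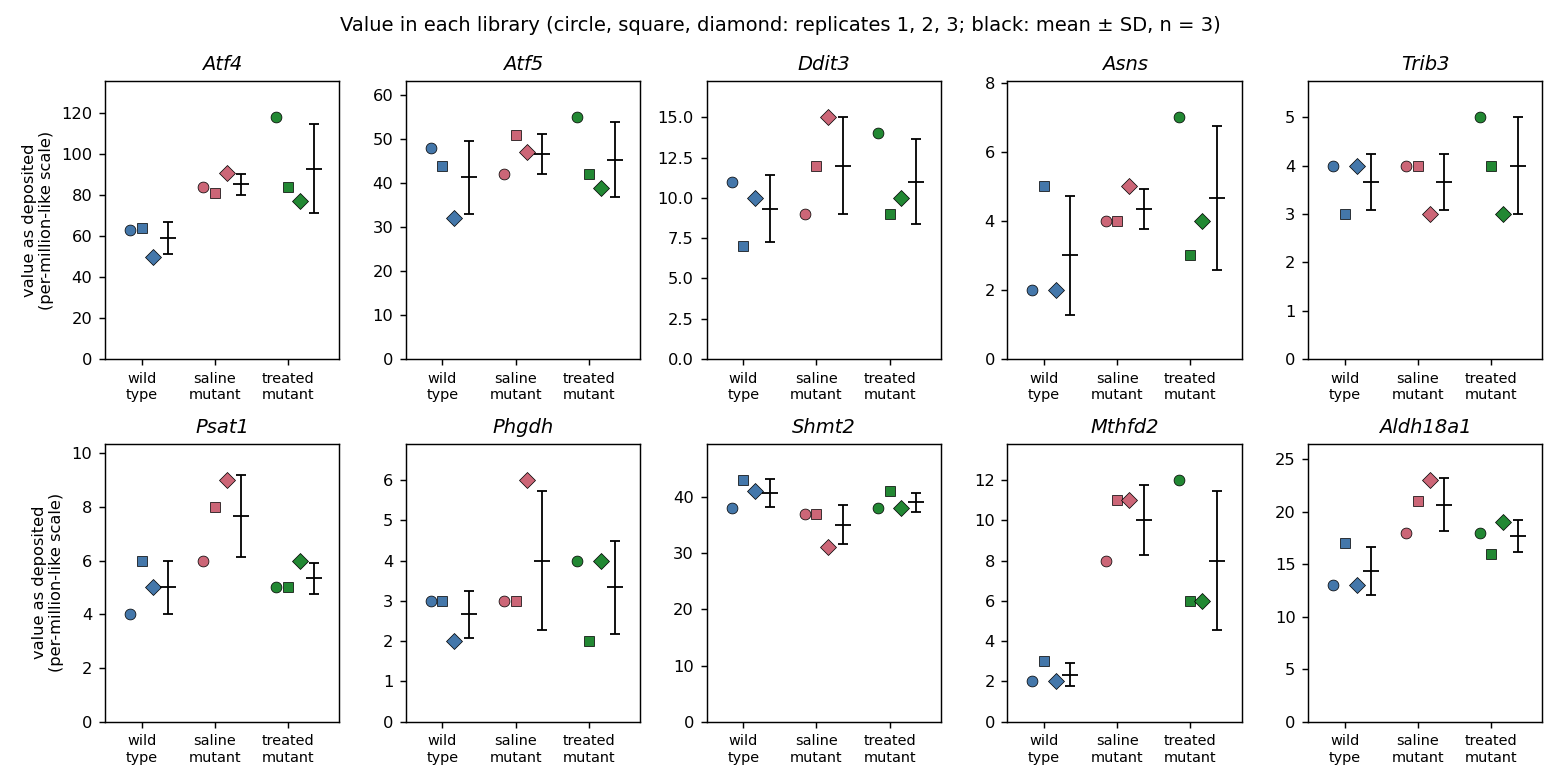
Deposited value (per-million-like scale, linear axis from 0) of each of the 10 genes in each library, with circles, squares and diamonds for replicates 1, 2 and 3 and black bars for the mean ± SD of 3 libraries. Atf4 and Mthfd2 lie higher in every mutant library, saline or treated, than in every wild-type library, and treated replicate 1 is the highest treated point for 6 of the 10 genes.

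Atf4 encodes the central transcription factor of the response (chr15:80255184-80257541, plus strand, GRCm38). Its value was 63, 64 and 50 in wild type, 84, 81 and 91 in saline mutants and, in treated mutants, 118, 84 and 77. All 6 mutant libraries lay above all 3 wild-type libraries, and treated replicate 1 was the highest of the 9. In saline mutants the mean was 85.3 ± 5.13 (SD, n = 3) against 59.0 ± 7.81 (n = 3) in wild type, a log2 difference of 0.53 (SE 0.123, 95% interval 0.25 to 0.81, limma adjusted p = 0.0335). That call was not firm: it was lost in 9 of 19 other settings, among them the fits without wild-type replicate 1 or 3 and without any 1 of the saline mutants, where the difference stayed between 0.42 and 0.58. Treated mutants averaged 93.0 ± 21.9 (n = 3), which differed from saline mutants by 0.10 on the log2 scale (95% interval -0.27 to 0.47, limma adjusted p = 0.894). Without treated replicate 1 that difference was -0.08. Against wild type the treated difference was 0.63 (SE 0.179, 95% interval 0.21 to 1.05), which did not pass over all genes (limma adjusted p = 0.208), and it was 0.45 without treated replicate 1.

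Atf5 encodes a related factor that takes part in the response to mitochondrial protein stress (chr7:44812256-44816658, minus strand). It was listed at 48, 44 and 32 in wild type, at 42, 51 and 47 in saline mutants and at 55, 42 and 39 in treated mutants. The 3 groups overlapped, and the log2 difference between saline mutants and wild type was 0.19 (95% interval -0.18 to 0.55, limma adjusted p = 0.593). Its exons share 82 of 1993 bases with Nup62 and Il4i1 on the other strand, and whether reads were counted by strand is not given in the sources used here.

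Ddit3 encodes CHOP, the factor that joins ATF4 in prolonged stress (chr10:127290774-127296288, plus strand). Its values were 11, 7 and 10 in wild type, 9, 12 and 15 in saline mutants and, in treated mutants, 14, 9 and 10. Every group spanned part of the range of the others, and the log2 difference of saline mutants from wild type was 0.33 (95% interval -0.17 to 0.83, limma adjusted p = 0.472). In GENCODE M21 the symbol covers 2 overlapping genes that share 105 of 1713 exonic bases, so the value may combine them. Ddit3 exons also share 68 bases with Mars and 13 with Gm4189, both on the other strand.

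Trib3 encodes a pseudokinase that is induced by ATF4 and CHOP and restrains them (chr2:152337422-152344032, minus strand). It was listed at 4, 3 and 4 in wild type, at 4, 4 and 3 in saline mutants and at 5, 4 and 3 in treated mutants. The saline groups had the same mean, 3.67 ± 0.577 (SD, n = 3 each), with a 95% interval of -0.43 to 0.43 for the log2 difference. At such values a rounded unit is a large step, so changes within that interval were not detectable.

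Among the enzymes of the mitochondrial folate pathway, Mthfd2 rose and Shmt2 did not. Mthfd2 encodes the mitochondrial methylenetetrahydrofolate dehydrogenase and cyclohydrolase, an ATF4 target that is low in most adult tissues (chr6:83305691-83325908, minus strand). Its value was 2, 3 and 2 in wild type, 8, 11 and 11 in saline mutants and, in treated mutants, 12, 6 and 6. No mutant library, saline or treated, came down to the wild-type range, and the lowest mutant value was 6 against a highest wild-type value of 3. The mean rose from 2.33 ± 0.577 (SD, n = 3) in wild type to 10 ± 1.73 (n = 3) in saline mutants, a log2 difference of 1.72 on the value + 1 scale (SE 0.198, 95% interval 1.27 to 2.17, limma adjusted p = 0.0014). It was called in all 18 other settings that tested it, with limma adjusted p between 0.00014 and 0.0266. The log2 difference ran from 1.03 to 2.06 over those settings. At wild-type values of 2 and 3 a rounded unit is a large step, so the size of the rise is uncertain.

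Treated mutants averaged 8 ± 3.46 for Mthfd2 (SD, n = 3), and their log2 difference from saline mutants was -0.34 (95% interval -0.94 to 0.26, limma adjusted p = 0.768). Without treated replicate 1, which held the highest value of all 9 libraries, that difference was -0.64 (limma adjusted p = 0.575). Against wild type the treated difference was 1.38 (SE 0.271, 95% interval 0.75 to 2.01), 3.43 times on the linear scale, with a limma adjusted p of 0.0796. Without treated replicate 1 it was 1.08 (limma adjusted p = 0.112). In the authors' deposited table the log2 fold change of Mthfd2 in saline mutants was 2.02 with an unadjusted p of 0.0089 (0.263 after Benjamini-Hochberg adjustment of their p-values), and the gene stood in their list of 689 for that comparison. Atf4 was not in that list, with a log2 fold change of 0.46 and an unadjusted p of 0.0491 in the authors' deposited table (0.791 after adjustment). The authors' deposited table for treated mutants against wild type gave Atf4 0.64 with an unadjusted p of 0.0173 (0.993 after adjustment), within their list of 317, and the list of 137 for treated against saline mutants held none of the 10 genes.

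Shmt2 encodes the mitochondrial serine hydroxymethyltransferase, which feeds carbon from serine into the folate pathway upstream of MTHFD2 (chr10:127517123-127522444, minus strand). It was listed at 38, 43 and 41 in wild type, at 37, 37 and 31 in saline mutants and at 38, 41 and 38 in treated mutants. All saline mutant values lay below the other 6, by as little as 1 unit. The log2 difference from wild type was -0.21 (SE 0.117, 95% interval -0.48 to 0.05, limma adjusted p = 0.37), which did not pass. The treated mutants differed from saline mutants by 0.16 (95% interval -0.12 to 0.43, limma adjusted p = 0.764). Shmt2 exons share 32 of 3109 bases with Ndufa4l2 on the other strand.

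Phgdh and Psat1 encode the first steps of serine synthesis from glycolysis. Psat1, phosphoserine aminotransferase (chr19:15904678-15947337, minus strand), was listed at 4, 6 and 5 in wild type, at 6, 8 and 9 in saline mutants and at 5, 5 and 6 in treated mutants. The saline groups met at a value of 6, and treated mutants lay within the wild-type range. The log2 difference of saline mutants from wild type was 0.53 (95% interval 0.07 to 0.98, limma adjusted p = 0.176), and that of treated from saline mutants was -0.44 (95% interval -0.86 to -0.02, unadjusted p = 0.0425, limma adjusted p = 0.576). Neither passed over all genes.

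Phgdh, phosphoglycerate dehydrogenase (chr3:98313170-98339990, minus strand), was listed at 3, 3 and 2 in wild type, at 3, 3 and 6 in saline mutants and at 4, 2 and 4 in treated mutants. Only saline mutant replicate 3 stood above the rest, and the log2 difference of saline mutants from wild type was 0.41 (95% interval -0.19 to 1, limma adjusted p = 0.445). The level of Phgdh is uncertain for another reason: 19 other annotated transcripts, 17 of them processed pseudogenes, matched its transcript at 90% identity or more over at least 200 bases, up to 98.7%. Psat1 and Shmt2 had 1 such copy each, and the other 7 genes had none.

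Asns encodes asparagine synthetase, one of the best known ATF4 targets (chr6:7675169-7693254, minus strand). It was listed at 2, 5 and 2 in wild type, at 4, 4 and 5 in saline mutants and at 7, 3 and 4 in treated mutants. Wild-type replicate 2 reached the highest saline mutant value, so the groups overlapped. The log2 difference of saline mutants from wild type was 0.49 (95% interval -0.15 to 1.14, limma adjusted p = 0.4), an interval that includes no change as well as more than a doubling on the value + 1 scale. Asns and Trib3, whose start windows held the ATF4 recognition core, were among the 8 of 10 members not called in saline mutants. Both had low values, and a link between the core and these results was not tested.

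Aldh18a1 encodes the enzyme that commits glutamate to proline and ornithine synthesis in mitochondria (chr19:40550257-40588463, minus strand). It was listed at 13, 17 and 13 in wild type, at 18, 21 and 23 in saline mutants and at 18, 16 and 19 in treated mutants. Every saline mutant lay above every wild-type library, while the treated values overlapped both groups. The log2 difference of saline mutants from wild type was 0.50 (SE 0.154, 95% interval 0.15 to 0.85, limma adjusted p = 0.0986), and it passed in 1 of 19 other settings, with median-of-ratios scaling (adjusted p = 0.0467). Treated mutants differed from wild type by 0.29 (limma adjusted p = 0.46).

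**Figure D2:**
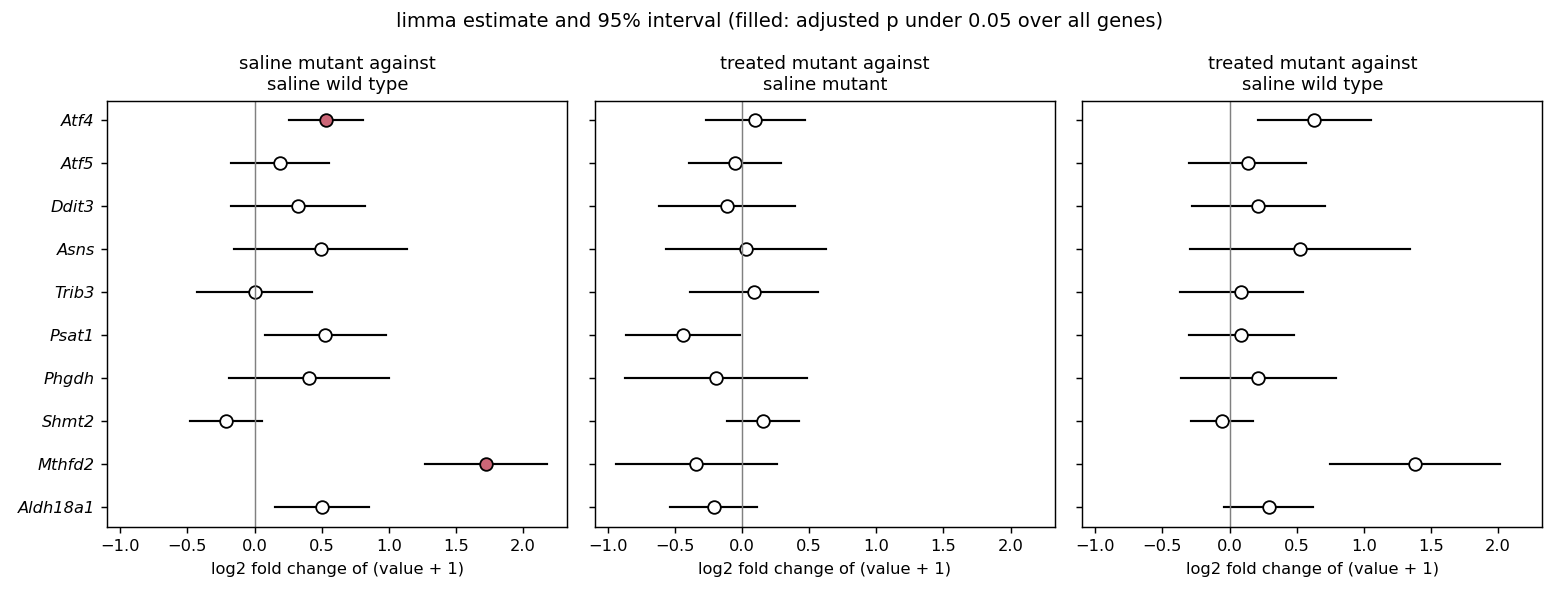
limma log2 fold change of value + 1 for each of the 10 genes (horizontal axis) in the 3 comparisons, with bars for the 95% interval and filled points for an adjusted p under 0.05. The filled points are Atf4 and Mthfd2 in saline mutants against wild type. In treated against saline mutants the only interval that leaves out 0 is that of Psat1, whose upper end is -0.02.

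These are bulk libraries, in which fewer cells of a type and less RNA per cell cannot be told apart. Cardiomyocyte markers were present in every library, at summed values of 43389 to 50220 in wild type, 43261 to 53176 in saline mutants and 46175 to 48797 in treated mutants, and 0 of 7 were called by limma in any comparison. Fibroblast markers were higher in saline mutants, as were Atf4 and Mthfd2: 2 of 6 were called higher, where 4.56% of all genes were. Their sums were 1200 to 1586 in wild type, 1935 to 2983 in saline mutants and 1452 to 1848 in treated mutants. In treated against saline mutants 0 of the 6 had a log2 difference above 0 (median -0.46), where Atf4 had 0.10 and Mthfd2 -0.34. Sums of 6 macrophage markers were 344 to 495 in wild type and 387 to 741 in saline mutants, and those of 5 proliferation markers 8 to 58 and 27 to 92, with no marker of either list called by limma. Blood markers were lower in saline mutants, with 2 of 5 called lower, where 3.14% of all genes were. Their sums were 104 to 313 in wild type against 69 to 85 in saline mutants. Smooth muscle and pericyte markers had lower sums as well, with 1 of 4 tested called and sums of 1091 to 1338 against 822 to 1068, and Tagln listed at 0 in both saline groups. Endothelial sums were 847 to 1190 against 776 to 886, with 0 of 5 called by limma, and the 1 atrial marker tested, Myl4, was called higher, at 1 in each wild-type library and 3 to 5 in saline mutants. Of the cardiomyocyte, fibroblast, macrophage, proliferation and blood lists, no marker was at 0 throughout a group, and T-cell markers, 3 of 5 in the tables, summed to between 0 and 2. The part of these cell types in the results for Atf4 and Mthfd2 was not tested.

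The rest of the pathway was followed in 8 lists with 116 distinct genes, none of them members. In saline mutants against wild type 7 rose and 5 fell among 114 tested, 10.5% called against 7.7% of all genes. In treated against saline mutants 0 of 114 were called by limma, against 0.0147% of all genes, and 8 had an unadjusted p under 0.05, against 8.29% of all genes. The largest separated difference in each list that had one, among genes with a mean of at least 5, was 0.38 for Dele1, 0.41 for Herpud1, 0.36 for Aldh4a1, -0.45 for Lars, 0.19 for Dnajb11 and 0.22 for Hspa9 on the log2 scale (limma adjusted p from 0.339 to 0.716). In treated mutants against wild type 1 of 113 was called, 0.885% against 0.989% of all genes. The largest separated differences of the lists without a call were 0.84 for Ppp1r15a, 0.94 for Slc38a2, 0.49 for Shmt1, -0.40 for Prodh, 0.50 for Cars, 0.62 for Atf6 and 0.24 for Lonp1 (limma adjusted p from 0.0627 to 0.425).

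**Figure D3:**
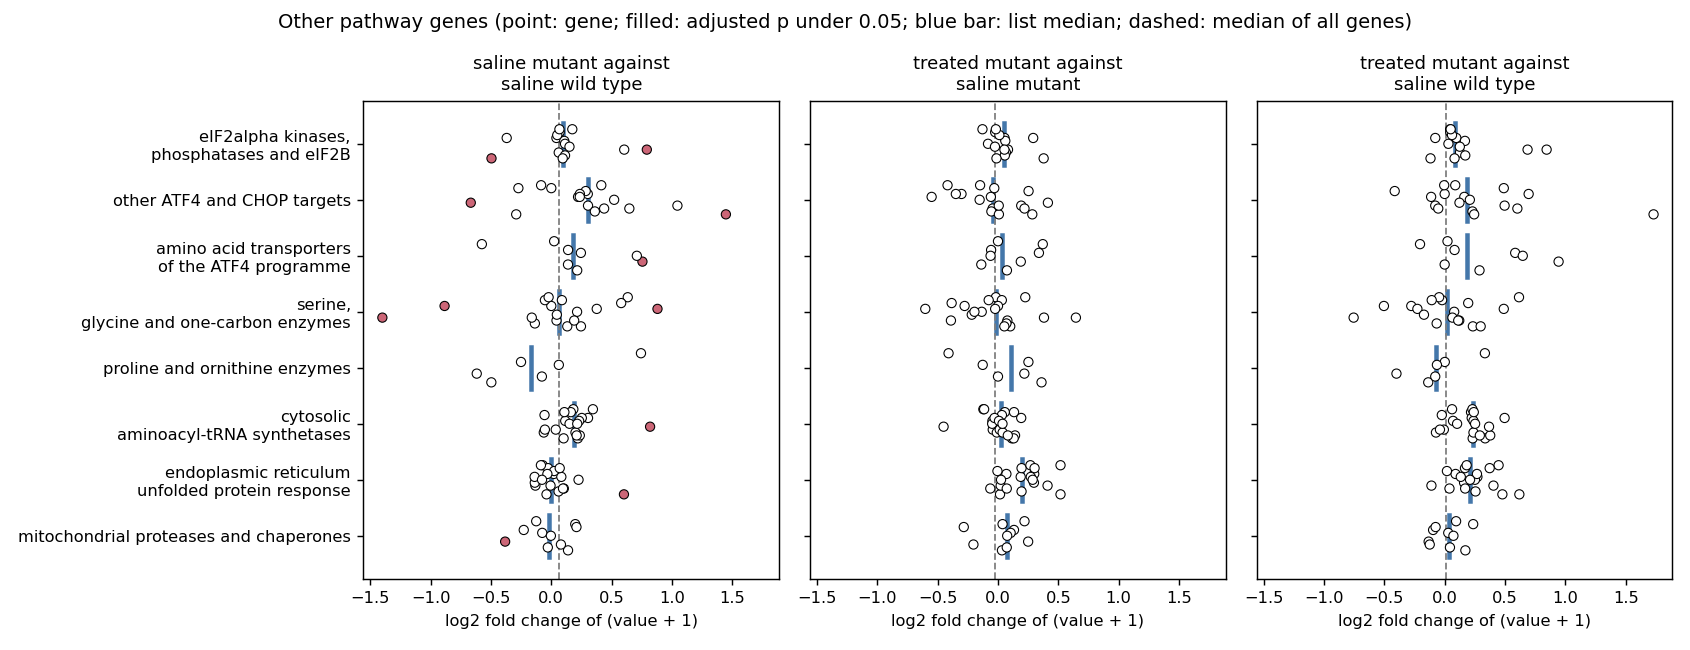
limma log2 fold change of value + 1 for the genes of the 8 other lists (points), in the 3 comparisons, with filled points for an adjusted p under 0.05, a blue bar for the median of each list and a dashed line for the median of all genes. Gdf15, listed at 0 in wild type, is not drawn. Filled points appear only in saline mutants against wild type, in 7 of the 8 lists and on both sides of 0.

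Of 15 genes for eIF2alpha kinases, phosphatases, eIF2B and their regulators, 1 rose and 1 fell in saline mutants. Over all genes 4.56% were called higher and 3.14% lower. Ppp1r15a encodes GADD34, the inducible regulatory subunit of a phosphatase complex that dephosphorylates eIF2alpha and closes the feedback loop. It was listed at 24, 21 and 18 in wild type, at 42, 34 and 35 in saline mutants and at 42, 43 and 31 in treated mutants. All 6 mutant libraries lay above wild type, saline and treated mutants overlapped, and the log2 difference of saline mutants from wild type was 0.79 (SE 0.143, limma adjusted p = 0.0114), called in all 19 other settings. Treated mutants were also above wild type, by 0.84, without passing (limma adjusted p = 0.0771), and by 0.78 without treated replicate 1. Dele1, which carries mitochondrial stress to the eIF2alpha kinase HRI, was listed at 133, 134 and 144 in wild type, at 108, 100 and 84 in saline mutants and at 118, 135 and 126 in treated mutants. It fell by 0.50 on the log2 scale in saline mutants (limma adjusted p = 0.0344, lost in 8 of 19 other settings).

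Among 19 tested targets of ATF4 and CHOP outside the 10 genes, 2 rose and 1 fell in saline mutants. Over all genes 4.56% were called higher and 3.14% lower. The list's median log2 difference was 0.30 against 0.07 over all genes. Gdf15, a secreted stress hormone, was listed at 0 in all 3 wild-type libraries, at 3, 4 and 6 in saline mutants and at 11, 3 and 3 in treated mutants. It was called in saline mutants (limma adjusted p = 0.001) and in 17 of 18 other settings (limma adjusted p up to 0.115). Its log2 difference there ran from 0.89 to 5.41 over those settings. Gdf15 was also called in treated mutants against wild type (limma adjusted p = 0.0479). That call was lost in 13 of 18 other settings, among them leaving out any 1 library (adjusted p = 0.0734 by limma without treated replicate 1). Atf3, a stress-induced factor of the same family, was listed at 4, 3 and 3 in wild type, at 19, 8 and 8 in saline mutants and at 18, 21 and 6 in treated mutants. It rose by 1.45 on the log2 scale in saline mutants (SE 0.306, limma adjusted p = 0.0231, lost in 6 of 18 other settings), and the treated values spread over as wide a range. Gpt2, the mitochondrial alanine transaminase, fell by 0.67 (limma adjusted p = 0.0434, lost in 10 of 19 other settings), from 43, 48 and 65 in wild type to 31, 36 and 29 in saline mutants.

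Of 8 tested amino acid transporters of the ATF4 programme, 1 rose in saline mutants, where 4.56% of all genes were called higher. Slc38a2 encodes SNAT2, the carrier for small neutral amino acids that responds to amino acid shortage. It was listed at 185, 177 and 192 in wild type, at 334, 291 and 313 in saline mutants and at 434, 385 and 270 in treated mutants. Every mutant library stood above every wild-type library, with a log2 difference of 0.76 in saline mutants (SE 0.0956, limma adjusted p = 0.0021, called in all 19 other settings) and of 0.94 in treated mutants (limma adjusted p = 0.0627), or 0.80 without treated replicate 1. The difference of treated from saline mutants was 0.19 (95% interval starting at -0.20, limma adjusted p = 0.815).

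The other serine, glycine and one-carbon enzymes moved in both directions in saline mutants, with 1 called higher and 2 lower of 18 tested. Over all genes 4.56% were called higher and 3.14% lower. The list's median was 0.07, the same as over all genes. Shmt1, the cytosolic counterpart of Shmt2, was listed at 11, 12 and 13 in wild type, at 23, 26 and 20 in saline mutants and at 15, 20 and 17 in treated mutants. It rose by 0.88 on the log2 scale in saline mutants (SE 0.141, limma adjusted p = 0.0068, called in all 19 other settings), and the treated values lay between those of the saline groups or touched the lowest mutant. Aldh1l2, the mitochondrial enzyme that oxidises formyl-folate downstream of MTHFD2, was listed at 6, 13 and 11 in wild type, at 3 in all 3 saline mutants and at 4, 6 and 6 in treated mutants. It fell by 1.40 (SE 0.252, limma adjusted p = 0.0111). Mtr, methionine synthase, was listed at 93, 141 and 132 in wild type, at 74, 65 and 56 in saline mutants and at 64, 101 and 93 in treated mutants, and fell by 0.88 in saline mutants (limma adjusted p = 0.0157). The call of Aldh1l2 was lost in 2 of 18 other settings, and that of Mtr in 4 of 19.

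None of the 6 genes of proline and ornithine metabolism beside Aldh18a1 was called by limma in any comparison. The largest separated difference in saline mutants was that of Prodh, proline dehydrogenase, at 21, 22 and 31 in wild type and 13, 15 and 19 in saline mutants, a log2 difference of -0.62 (limma adjusted p = 0.0976). Of 20 cytosolic aminoacyl-tRNA synthetases, 17 had log2 differences above 0 in saline mutants, where 59.1% of all genes did. Only 1 was called, where 7.7% of all genes were. That was Lars, leucyl-tRNA synthetase, at 58, 62 and 75 in wild type, at 100, 117 and 129 in saline mutants, and at 85, 82 and 84 in the treated group. Its log2 difference in saline mutants was 0.82 (SE 0.136, limma adjusted p = 0.0079, called in 18 of 19 other settings). The median of the 20 was 0.19. In treated mutants against wild type the groups separated upward for 10 of the 20, with a median of 0.23 against 0.01 over all genes, of which 9.13% separated upward, and none was called by limma, as against 0.989% of all genes.

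Of 10 mitochondrial proteases and chaperones, 1 fell in saline mutants, where 3.14% of all genes were called lower. Clpx, the unfoldase subunit of the CLPXP protease, was listed at 138, 128 and 134 in wild type, at 103, 103 and 100 in saline mutants and at 102, 144 and 122 in treated mutants. Its log2 difference in saline mutants was -0.38 (limma adjusted p = 0.0348, lost in 9 of 19 other settings). The list's median was -0.02.

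**Figure D4:**
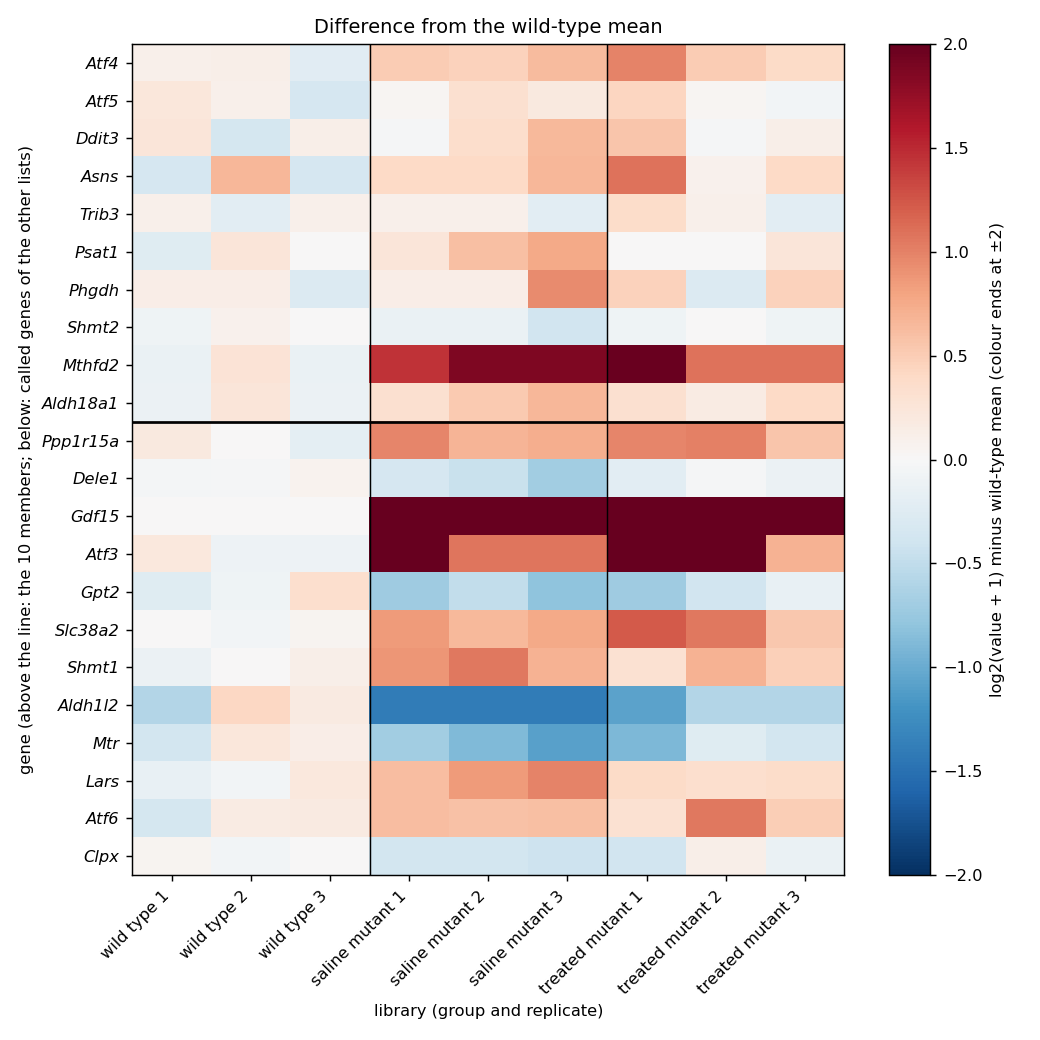
Difference of each library from the wild-type mean on the log2(value + 1) scale, coloured from blue (lower) to red (higher) with the colours ending at 2 on either side, for the 10 genes (above the line) and the called genes of the other lists (below it). The rows of Mthfd2, Gdf15, Atf3, Ppp1r15a and Slc38a2 are red across all 6 mutant libraries. Those of Atf4 and Atf6 are a paler red across most of them. Those of Shmt1 and Lars are red in the saline mutants and mostly paler in the treated ones. Most members other than Mthfd2 are pale in most libraries.

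The unfolded protein response of the endoplasmic reticulum, a separate arm of stress signalling that also meets eIF2alpha through the kinase PERK, was near its wild-type level in saline mutants. Of its 19 genes 1 was called, where 7.7% of all genes were, and the list's median was -0.01. That gene was the sensor Atf6, at 98, 141 and 143 in wild type and 193, 189 and 191 in saline mutants. Its log2 difference was 0.60 (limma adjusted p = 0.0425, lost in 9 of 19 other settings). In treated mutants 18 of the 19 log2 differences from wild type were above 0 (51.4% of all genes), with a median of 0.21, and none was called. Without treated replicate 1, 10 of the 19 were above 0 (56.5% of all genes), with a median of 0.04, the same as over all genes. The higher values lay mostly in 1 library: 16 of the 19 genes were highest in treated replicate 1 among the 3 treated libraries (84.2%), where the same held for 2286 of the 8786 genes with a mean of 10 or more.

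The chaperone gene Hspa5, which encodes BiP, was listed at 580, 549 and 477 in wild type, at 525, 477 and 456 in saline mutants and at 817, 525 and 495 in treated mutants. Manf, a secreted protein of the same response, stood at 59 in treated replicate 1 and at 26 and 25 in the other treated libraries. Both were chosen after their values were seen. The median difference of the 19 genes from the wild-type mean was 0.50 on the log2 scale in treated replicate 1, 0.13 in replicate 2 and -0.02 in replicate 3. The same library was the highest treated one, without ties, for 6 of the 10 members, and it is the library that held both Xist and Y-linked transcripts, a feature whose part in these values was not tested. In saline mutants replicate 3 was highest without ties for 6 of the 10 members, and for 60.4% of the 8786 genes.

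**Figure D5:**
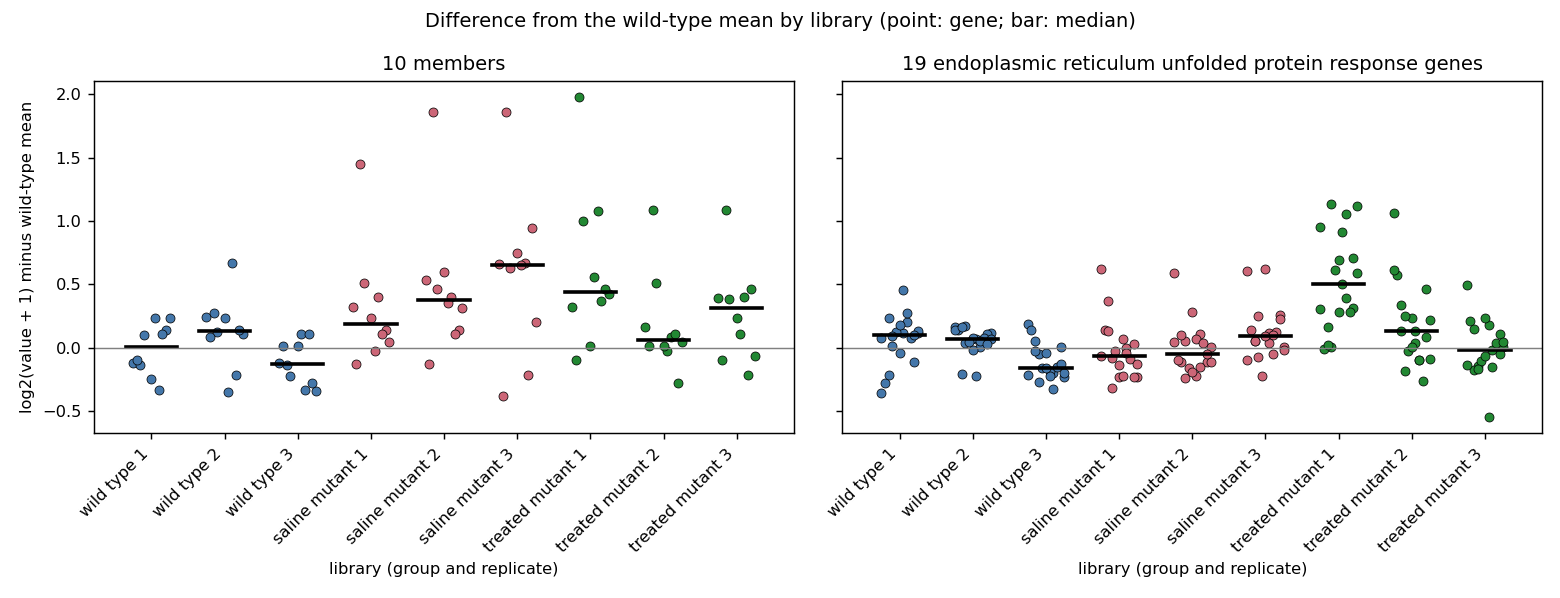
Difference of each library from the wild-type mean on the log2(value + 1) scale, for the 10 genes (left) and the 19 genes of the endoplasmic reticulum unfolded protein response (right), with 1 point per gene and a bar for the median of each library. On the right treated replicate 1 stands highest, with a median of 0.50. On the left the uppermost point in each mutant library is Mthfd2.

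Across the 9 libraries, the genes whose log2(value + 1) followed Atf4 most closely, among 8785 with a mean of 10 or more, were Atp6ap1 (Pearson r = 0.99), which encodes an accessory subunit of the proton pump of acidic organelles, and Bop1 (0.99), which encodes a ribosome assembly factor. Atp6ap1 was listed at 127, 125 and 111 in wild type, at 144, 144 and 151 in saline mutants and at 175, 139 and 138 in treated mutants, with the same highest library as Atf4. For Mthfd2 the closest of 8786 were the noncoding RNA Hectd2os (0.99) and Gnao1 (0.99), the alpha subunit of a heterotrimeric G protein, which was listed at 26, 31 and 27 in wild type, at 70, 86 and 96 in saline mutants and at 83, 65 and 58 in treated mutants. These coefficients describe 9 points that share 3 groups, and 61 and 192 genes had r above 0.9 with Atf4 and Mthfd2.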

How the data were processed

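RNA levels of 9 mouse heart libraries, 3 per group, were taken from 3 deposited tables, 1 for each pair of groups. Grouping followed the labels. The deposited value of each gene and library was treated as a score: it is a whole number, no header names its unit, and the totals fit a per-million scale that the authors rounded. Whether it is scaled for gene length is not known, so levels were not compared between genes. The deposited mean signal per gene, log2 fold changes and p-values are the authors' own, per the file headers, which use DESeq2 column names. HISAT2, HTSeq, DESeq2 and the mm10 genome are named in the submitters' processing notes, without versions. The authors' column headed as the adjusted p-value held unadjusted p-values, and these are what is quoted.

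Each pair of groups was fitted in R 4.3.3, by limma 3.58.1, to log2(value + 1), a scale that understates changes of low genes, for genes with a mean of at least 1 over the 6 libraries. Residual variances were held at or above the rounding variance (1/12 on the value scale), the empirical Bayes step used a trend whose prior degrees of freedom came from genes averaging 30 or more, and p-values were adjusted by Benjamini-Hochberg over all genes tested. The script was tested on simulated data, with changes placed only in genes with a mean of at least 10. Recovery of changes in lower genes was not tested. The 10 genes, the 8 lists, the fit and the naming rule were chosen with earlier results of these data known. By that rule all 10 members are named, and of each other list the called genes, up to 3 in each direction, or else the largest difference without overlap among genes with a mean of at least 5. Alternatives were another pseudocount, filter, scaling, variance step, 1 fit of all libraries, a replicate block, a Y-linked covariate, and leaving out libraries. Positions come from GENCODE M21 (GRCm38), start windows from RefSeq (GRCm38.p6), and copies from BLAST 2.17.0. Of the list genes, Fgf21, Slc7a11, Slc7a3, Cbs and Ftcd were not analysed here, nor were all 4 adipose and 3 of 4 atrial markers. No 2 libraries of a group were alike: 5.22% to 10.3% of 8786 genes had equal values.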

Additional observations from a re-analysis of the deposited data

How the results depend on the processing

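Between saline mutants and wild type 2 of the 10 genes were called. Only 1 was called with a mean filter of 10, without the rounding floor, with all 9 libraries in 1 fit, or without the 3 libraries with Xist, and leaving out 1 library gave 1 to 2. Mthfd2 was untested under that filter, leaving Atf4; in the other cases Mthfd2 was the gene kept. The replicate block also gave 1, and deviations of same-numbered libraries correlated between -0.37 and 0.57 over 8786 genes (highest for treated and wild-type replicate 1, both with Xist), not above 0.1 in every pair of any comparison, so the numbers were not taken to pair samples; over all genes the block called 819, 30 and 35 in place of 1050, 2 and 134. Treated against saline mutants gave 0 in all 19 settings. Treated mutants against wild type gave 1, Mthfd2, with prior degrees of freedom from all genes (adjusted p = 0.0329) or with all 9 libraries in 1 fit (0.025). Directions turned, among uncalled differences only, in 23 cases, and the cause was not tested. In treated against saline mutants these were Ddit3 0.043 and Phgdh 0.046 with the Y-linked covariate, and Atf4 -0.036, Asns -0.16 and Trib3 -0.16 without the 3 libraries with Xist. Leaving out 1 library there gave Atf4 -0.083 to 0.22, Atf5 -0.20 to 0.046, Ddit3 -0.29 to 0.052, Asns -0.25 to 0.25, Trib3 -0.054 to 0.24 and Phgdh -0.33 to 0.076. In treated mutants against wild type Psat1 was -0.028 with the Y-linked covariate, and leaving out 1 library gave Atf5 -0.035 to 0.25, Trib3 -0.054 to 0.24 and Psat1 -0.037 to 0.21. Among the fits that left out 1 library, the lowest values of Atf4, Asns, Trib3 and of Atf5 against saline mutants came without treated replicate 1. Counts over all genes ranged from 506 to 1289, 2 to 32 and 1 to 243 in the 3 comparisons, lowest in the last without wild-type replicate 1. The share of calls that were higher in treated mutants against wild type was 87.3%. It was 71.3% with upper-quartile scaling, 50.6% without the rounding floor (39 of 77 calls) and 100% with the Y-linked covariate (15 calls). Depth is unknown, so counting error could not be computed, and rounding limits values under about 10.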
